A study of Sus scrofa with 6 samples.

Results

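The genes described here encode proteins of the chemical synapse: the vesicle and release machinery of the nerve terminal, the neurotransmitter receptors, and a small set of postsynaptic signalling genes and GABA-synthesising enzymes. They were chosen by name, with a fixed pattern over the gene symbols of the platform annotation. The pattern used no measured value, but it was chosen with earlier results of these data known. The pattern found 33 genes among the 6765 named genes on the array, read by 47 of the 10069 probe sets that carry exactly 1 symbol. Of the 33 genes, 9 belong to the vesicle and release machinery, 18 are receptor genes, and 6 are kinase, scaffold and GABA synthesis genes. The pattern also covers the vesicle membrane proteins synaptophysin, synaptogyrin and SV2, the complexins, the metabotropic, AMPA and kainate receptors of glutamate, tomosyn (STXBP5) and neurogranin (NRGN), but none of these came with a probe set of exactly 1 such symbol, and they were not analysed here.

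At a chemical synapse, transmitter is stored in vesicles that synapsins tether to the cytoskeleton and that Rab3 proteins bring to the release sites. Vesicle and plasma membrane are then fused by SNARE proteins when synaptotagmin binds calcium, and NSF takes the used SNARE complexes apart. On the receiving cell the transmitter opens ion channel receptors or acts through G protein-coupled receptors, and calcium entry activates CaM kinase II. In the fetal cortex, synapses form while many neurons still migrate, so transcripts of the release machinery are present well before mature circuits.

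RNA was taken from the cerebral cortex of pig embryos at embryonic day 80 (E80, 3 embryos), when the primary folds are present, and at embryonic day 60 (E60, 3 embryos), when the surface is still smooth, and was hybridised to 1 Affymetrix Pig Genome Array per embryo. No treatment or genotype is given, and all 6 samples are of the same species and tissue. The question of the comparison is which transcripts differ between the days before and after folding appears. The labels name no litter, so that litter and day cannot be told apart, and the embryos are called replicates 1 to 3 of each day only as names. Signals are linear MAS5 values, and each gene is represented by its probe set with the highest mean log2 signal over the 6 arrays. Differences are log2 signals of E80 minus E60 from limma, positive where E80 was higher, and a gene is said to have risen or fallen only at an adjusted p under 0.05, with the adjustment over all 23999 probe sets tested.

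The arrays had medians of 55.6 to 59.5 at E80 and 60.9 to 64.8 at E60, and the median log2 difference over all probe sets was -0.053. With the medians of the arrays set to a common value this median was 0.06, and the risen and fallen probe sets of the whole table, 224 and 243, became 311 and 108. E80 replicate 3 stood apart in markers of several other cell types. The 4 measured choroid plexus markers summed to 5463 on it, against 109 and 196 on the other E80 arrays and 88.6 to 174 at E60, and all 4 (TTR, ENPP2, AQP1 and FOLR1) were highest there, with TTR at 4475 against 15.1 and 6.25 on the other E80 arrays. The 4 measured oligodendrocyte markers summed to 731 on it, against 296 and 235 on the other E80 arrays, and the 2 measured microglial markers to 317, against 101.3 and 112. Of 8 listed neuronal markers 5 were measured, SNAP25 among them. None of the 6 listed markers of excitatory neurons could be checked.

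Several genes of the release machinery were higher at E80, by less than 2-fold. Synapsin 1 (SYN1), RAB3A and SNAP25 rose by 1.94-fold, 1.47-fold and 1.38-fold, and the beta subunit of CaM kinase II (CAMK2B) rose by 1.53-fold. The other 29 members did not pass the test, and no member fell, although 10 members (30.3%) were higher and 2 (6.06%) lower at an unadjusted p under 0.05 in limma, against 10.1% and 10.6% of all named genes. The 4 that rose are 12.1% of the members, while 1.49% of all named genes had risen and 1.05% had fallen by the same rule (0.933% and 1.01% of all probe sets). All 4 lie among the 18 members whose level was above the median of all probe sets, where 2.06% of named genes rose. These calls depend on single arrays: 0 members had risen without E80 replicate 1, without E80 replicate 3, without E60 replicate 1 or without E60 replicate 2, 2 without E60 replicate 3 and 3 without E80 replicate 2. Without E80 replicate 1, E60 replicate 1 or E60 replicate 2 0 of the probe sets tested on the whole array had risen. The log2 differences themselves, with 1 array left out, were 0.84 to 1.15 for SYN1, 0.49 to 0.59 for RAB3A, 0.42 to 0.50 for SNAP25 and 0.54 to 0.73 for CAMK2B. In bulk tissue, fewer cells of a type and less RNA per cell cannot be told apart.

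**Figure D1:**
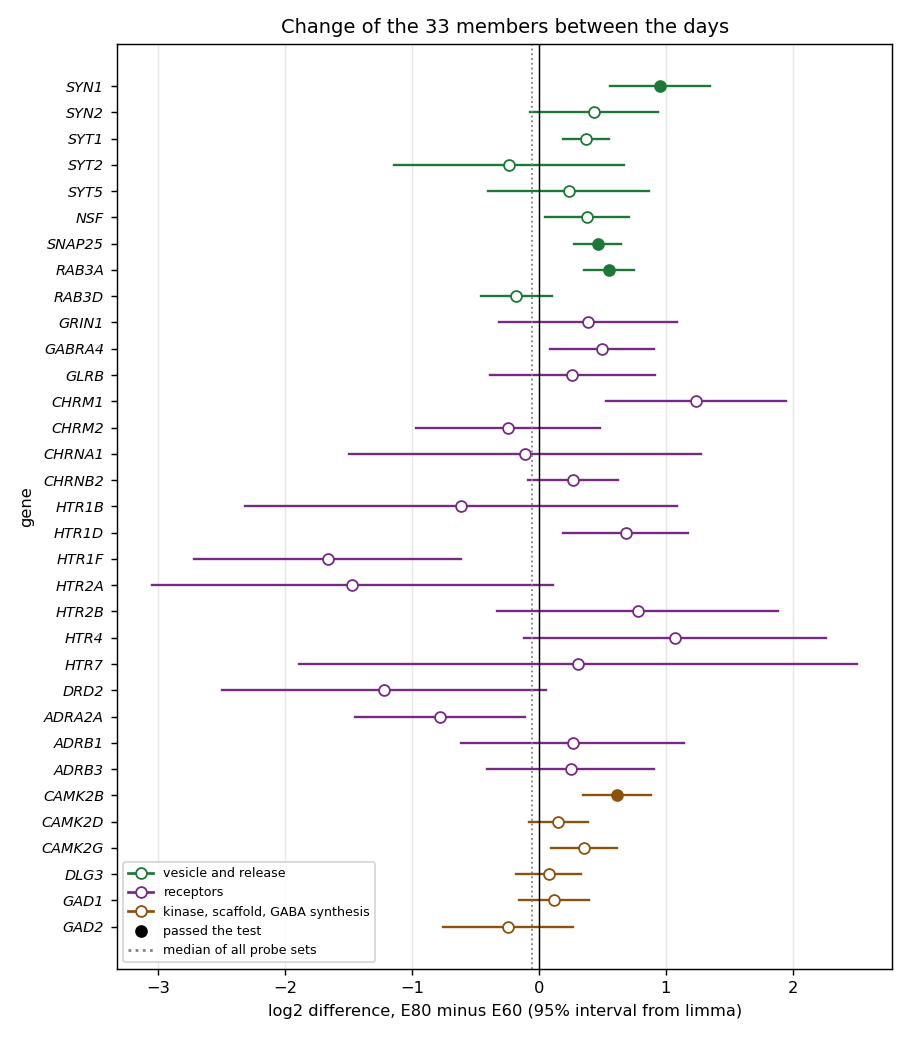
Log2 difference of E80 minus E60 for each of the 33 members (1 row per gene, ordered by role), with the 95% interval from limma as a bar. Filled points passed the test (SYN1, SNAP25, RAB3A and CAMK2B), and the dotted line is the median of all probe sets at -0.053. The widest intervals are those of the dim serotonin receptor genes HTR7, HTR1B and HTR2A.

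The direction of the members as a group was more often up than down. Their mean log2 signal was higher at E80 for 23 of the 33 genes (69.7%), against 49.9% of all named genes, and their median log2 difference was 0.27, against -0.00046 over all named genes. All 3 arrays of E80 lay above all 3 of E60 for 11 members, or 33.3% (12.8% of all named genes), and below them for 2 (14.7% of all named genes). The vesicle and release genes had a median log2 difference of 0.38, with 7 of 9 higher and 6 of 9 without overlap. The receptor genes had a median of 0.27, with 11 of 18 higher, but only 5 of them were above the median level of all probe sets and their single values ranged from -1.66 to 1.24. The remaining 6 members, all above the median level, had a median of 0.14.

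Synapsin 1 coats vesicles and holds them in reserve near the release sites. SYN1 had signals of 485, 335 and 515 on the E80 arrays, against 245, 202 and 233 on the E60 arrays. The lowest E80 embryo thus lay above the highest E60 embryo, and the E80 embryos were more spread. The mean was 445 ± 96.6 at E80 and 227 ± 22.2 at E60 (SD, n = 3 each), and the log2 difference was 0.95 with a standard error of 0.17 (limma, adjusted p = 0.0378). Synapsin 2 (SYN2) was dim, with signals of 49.5, 42.8 and 40.6 at E80 and 31.1, 38.8 and 28.8 at E60. Its days did not overlap, but its log2 difference of 0.44 did not pass (adjusted p = 0.343).

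RAB3A, the main Rab3 protein of brain vesicles, had signals of 2004, 1784 and 1753 at E80, against 1207, 1274 and 1293 at E60. The days were far apart relative to their spread, and the log2 difference was 0.55 with a standard error of 0.09 (limma, adjusted p = 0.0250), the smallest adjusted p of the 33 members. RAB3D, a relative known from the secretory granules of exocrine cells in the mouse, was read by 3 probe sets that did not go the same way. The probe set with the highest level had signals of 169, 149.9 and 142 at E80, against 160.2, 179 and 181 at E60. Its days overlapped, with a log2 difference of -0.18 (adjusted p = 0.497). A dimmer probe set rose, with signals of 44.6, 55.3 and 40.2 at E80, against 20.7, 18.0 and 18.9 at E60, with a log2 difference of 1.27 and a standard error of 0.24 (limma, adjusted p = 0.0405). The third probe set had a log2 difference of -0.16 (adjusted p = 0.910). Which of them reads the RAB3D transcript was not tested, since probe sequences were not used here, and RAB3D is counted among the genes that did not pass.

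SNAP25, the plasma membrane SNARE of the nerve terminal, had signals of 2029.6, 1957 and 1929 at E80, against 1494, 1342 and 1458 at E60. The means were 1972 ± 51.7 at E80 and 1431 ± 79.4 at E60 (SD, n = 3 each), so that the embryos of a day lay close together and the days stood apart, with a log2 difference of 0.46 and a standard error of 0.08 (limma, adjusted p = 0.0342). NSF had signals of 627, 439 and 519 at E80 and 437, 412 and 358 at E60 on its probe set with the highest level. The lowest E80 value barely exceeded the highest E60 value, and the log2 difference of 0.38 did not pass (adjusted p = 0.214). Its other 3 probe sets had log2 differences of 0.11, -0.31 and 1.55, the last at signals of 0.154 to 5.40, and none passed.

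SYT1, the calcium sensor of fast release, was read by a pair of probe sets with the same direction. On the probe set with the higher level the signals were 2167, 2274 and 2005 at E80, against 1669.7, 1657 and 1647 at E60. The E60 embryos were nearly equal, with an SD of 11.5, and all E80 embryos were above them, yet the log2 difference of 0.37 (standard error 0.08) had an adjusted p of 0.06005 and did not pass. On the other probe set the signals were 332, 328 and 324 at E80, against 240.1, 238 and 244 at E60, and this one rose, with a log2 difference of 0.45 and a standard error of 0.09 (limma, adjusted p = 0.0479). The first probe set passed in 3 of 13 other settings and the second in 5 of 13. SYT5, a synaptotagmin of vesicles and dense core granules, had signals of 996, 815 and 1333 at E80, against 755, 651 and 1348 at E60. Replicate 3 of each day was far above the others, the days overlapped, and the log2 difference of 0.24 (adjusted p = 0.711) was 0.55 without E60 replicate 3 and 0.025 without E60 replicate 2, and did not pass in either. SYT2, a further calcium sensor of release, was near the lower end of the array scale, with signals of 7.80 to 16.7 at E80 and 11.7 to 13.2 at E60.

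**Figure D2:**
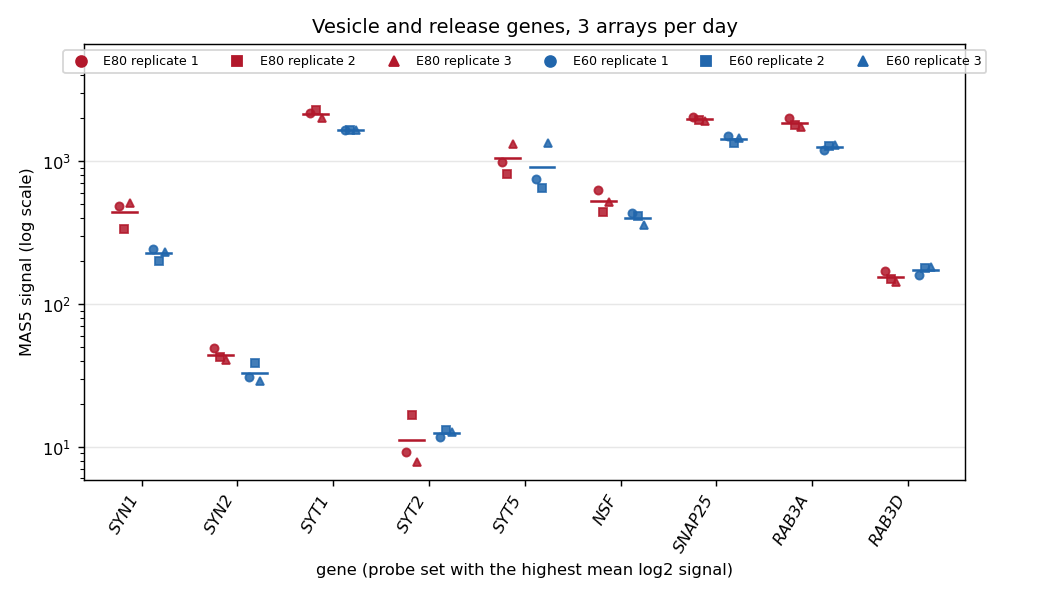
MAS5 signal (log scale) of the 9 vesicle and release genes on each array, with E80 in red to the left of E60 in blue, 1 marker shape per replicate and bars for the means. For SYN1, SYN2, SYT1, NSF, SNAP25 and RAB3A all 3 E80 arrays lie above all 3 E60 arrays, while SYT2, SYT5 and RAB3D overlap.

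Markers of several cell types differed between the days beside the vesicle and release genes. The 4 measured neuronal markers outside the members (MAP2, STMN2, ELAVL4 and NEFL) summed to signals of 8425 to 9202 at E80, against 7443 to 8076 at E60, with a mean log2 difference of 0.22, and none of them passed the test (adjusted p = 0.294 to 0.409). With each array scaled to these 4 genes, a setting chosen after the values were seen, the log2 difference was 0.73 for SYN1, 0.33 for RAB3A, 0.24 for SNAP25 and 0.39 for CAMK2B, all without overlap between the days. On the same scale the median of the vesicle and release genes was 0.16, with 7 of 9 higher at E80, 3 of 9 higher without overlap (SYN1, SNAP25 and RAB3A) and 1 lower without overlap (RAB3D, -0.40). Of all named genes, 23.3% were higher on this scale, 3.49% higher without overlap and 26.4% lower without overlap, and their median was -0.22. Of the other cell types, the 3 measured radial glia markers summed to 4124 to 4624 at E80 and 4949.5 to 5041 at E60, and the 4 endothelial markers to 788 to 959 at E80 and 971 to 1057 at E60, both lower at E80 without overlap. Singly, HES1 and VIM of the radial glia were lower without overlap, and FABP7 overlapped (log2 difference -0.03). Of the endothelial markers only KDR was lower without overlap, while CLDN5 (-0.24), FLT1 (-0.15) and PECAM1 (0.06) overlapped. The 4 oligodendrocyte markers summed to 235 to 731 at E80 and 154 to 195 at E60, higher without overlap. MBP and OLIG2 were each higher without overlap, while CNP (-0.22) and MAG (0.04) overlapped. The 4 markers of fibroblasts and meninges summed to 332 to 847 at E80 and 819 to 1291 at E60, and the 5 astrocyte markers to 1349 to 2451 at E80 and 1142 to 1465 at E60, both with overlap. Among the astrocyte markers GFAP, an intermediate filament protein, rose by 3.70-fold (limma, adjusted p = 0.0304), but the markers did not move together. SLC1A2 was higher without overlap (log2 difference 0.80), while ALDH1L1 (0.80), SLC1A3 (0.12) and GJA1 (-0.13) overlapped, and none of these passed. The part of these cell types in the differences of the members was not tested.

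CaM kinase II is the calcium-activated kinase of the postsynaptic density, built from alpha, beta, gamma and delta subunits, of which the last 3 were measured. CAMK2B had signals of 1489.9, 1292 and 1330.4 at E80, against 807, 846 and 1042 at E60. All E80 embryos lay above all E60 embryos, and the log2 difference was 0.62 with a standard error of 0.12 (limma, adjusted p = 0.0424). CAMK2G had signals of 621, 658 and 539.6 at E80, against 427, 519 and 473 at E60. Its days did not overlap, and the log2 difference of 0.36 did not pass (adjusted p = 0.149), nor did that of 0.42 on its dimmer probe set (adjusted p = 0.0975), whose days did not overlap either. CAMK2D had signals of 701 to 833 at E80 and 635 to 733 at E60, and a log2 difference of 0.15 (95% interval -0.08 to 0.39). DLG3, a scaffold protein of NMDA receptors, had signals of 326 to 383 at E80 and 311 to 377 at E60, a log2 difference of 0.08 with an interval of -0.18 to 0.34.

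GAD1 and GAD2 make GABA from glutamate and mark the inhibitory interneurons. GAD1 had signals of 1031, 969.8 and 943 at E80, against 1078, 794 and 859.7 at E60, so that the range of E80 lay within that of E60. The log2 difference was 0.12 (95% interval -0.16 to 0.40, adjusted p = 0.662). GAD2 had signals of 176, 124 and 202 at E80, against 255, 165 and 173 at E60, and a log2 difference of -0.24 (adjusted p = 0.625), with -0.36 on its dimmer probe set. Both GAD genes overlapped between the days, and neither passed. The 5 measured interneuron markers, to which both belong, summed to signals of 2972 to 3776 at E80 and 2770.1 to 3328 at E60, but did not move together. CALB2, which encodes calretinin, rose by 2.59-fold (limma, adjusted p = 0.0218), the neuropeptide gene NPY was lower at E80 without overlap (log2 difference -0.40, adjusted p = 0.155), and SST, for somatostatin, overlapped (0.24, adjusted p = 0.499).

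No receptor gene passed the test in limma, while 3 were higher and 2 lower at an unadjusted p under 0.05, or 27.8% of the 18 against 20.7% of all named genes. Among receptors for acetylcholine, the muscarinic receptor CHRM1, which couples to phospholipase C and is abundant in the mature cortex, had signals of 202, 122 and 276 at E80, against 80.8, 61.0 and 104 at E60. Every E80 embryo was above every E60 embryo, though the E80 embryos differed among themselves by more than the gap between the days. The means were 199.9 ± 77.4 at E80 and 82.0 ± 21.6 at E60 (SD, n = 3 each), 2.36-fold higher from the mean log2 signals, with a log2 difference of 1.24 (standard error 0.31, adjusted p = 0.0852). CHRM1 passed without E80 replicate 2 (1.56, adjusted p = 0.0405) and with array weights (1.39, adjusted p = 0.0301), and not in the other 11 settings. The neuronal nicotinic subunit CHRNB2 had signals of 354, 241 and 321 at E80 and 244, 234 and 274 at E60, with overlapping days and a log2 difference of 0.27 (adjusted p = 0.402), and 0.09 on its dimmer probe set. The inhibitory muscarinic receptor CHRM2 (signals of 17.2 to 24.4 at E80 and 16.9 to 27.7 at E60) and the muscle nicotinic subunit CHRNA1 (8.07 to 15.3 at E80 and 5.18 to 23.1 at E60) were dim on all arrays, and the sign for CHRNA1 changed with the array left out.

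Apart from the nicotinic subunits above, the receptors that are themselves ion channels, for GABA, glutamate and glycine, had positive log2 differences that did not pass. The alpha 4 subunit of the GABA-A receptor (GABRA4) had signals of 130.3, 133 and 141 at E80, against 119.9, 94.97 and 75.9 at E60. The E80 embryos were nearly equal and above all E60 embryos, and the log2 difference was 0.50 (standard error 0.18, adjusted p = 0.190). GRIN1, the subunit that every NMDA receptor contains, had signals of 49.1, 70.9 and 70.5 at E80, against 36.7, 39.6 and 75.3 at E60. Its days overlapped through E60 replicate 3, the highest value of all 6, and the log2 difference of 0.39 (adjusted p = 0.559) was 0.72 without that array and did not pass there either. GLRB, the glycine receptor subunit that binds the scaffold gephyrin, had signals of 50.1, 64.2 and 55.9 at E80 and 58.3, 58.6 and 30.4 at E60. Its log2 difference of 0.26 (adjusted p = 0.680) rests on the low value of E60 replicate 3 and was -0.050 without it.

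DRD2, the inhibitory dopamine receptor that is densest in the striatum below the cortex, had signals of 25.1, 31.4 and 104 at E80, against 118, 57.3 and 153 at E60. E80 replicate 3 lay between the E60 embryos, so that the days overlapped, and the log2 difference of -1.22 (95% interval -2.49 to 0.06) did not pass (adjusted p = 0.297). Without E80 replicate 3 it was -1.85, and it stayed negative and short of the threshold in all 13 other settings. Of 8 listed striatal markers 2 were measured, DRD2 and the retinoid receptor RXRG, and they summed to signals of 174, 91.9 and 405 at E80 and 747, 258 and 508 at E60. On both days replicate 2 had the lowest sum. The part of striatal RNA in the DRD2 difference was not tested.

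The 7 serotonin receptor genes were all at or below the median level of all probe sets, and their log2 differences ran from -1.66 to 1.07. HTR1D, an inhibitory receptor of nerve terminals, had signals of 68.2, 76.5 and 62.2 at E80, against 51.3, 33.5 and 45.5 at E60. Its days were apart, and its log2 difference of 0.69 (standard error 0.21, adjusted p = 0.144) did not pass. HTR1F, another inhibitory serotonin receptor, had signals of 3.22, 8.40 and 6.34 at E80, against 22.3, 16.2 and 14.98 at E60. All E80 embryos were below all E60 embryos, with a log2 difference of -1.66 (standard error 0.46, adjusted p = 0.108). HTR1F is the only member that differed by at least 3-fold, the threshold of the study, with no overlap between the days. Of all named genes 0.177% met this rule in this direction, 12 of the 2116 at or below the median level and 0 of the 4649 above it. At these low signals the size of the difference depends on the scale, and with 32 added to each signal it was -0.39. The paper's list past 3-fold does not name HTR1F, but it holds DRD2, lower at E80, and neurogranin and tomosyn, higher. Here DRD2 was 2.33-fold lower with overlapping days, from the mean log2 signals of its 1 probe set. The paper does not state how its folds were computed. Neurogranin, which the paper also found higher by qRT-PCR, and tomosyn were not analysed. HTR2A, which couples to phospholipase C, had signals of 16.5, 6.75 and 2.30 at E80, against 25.6, 14.5 and 14.6 at E60, which overlapped (log2 difference -1.47, adjusted p = 0.310). HTR1B, HTR2B, HTR4 and HTR7 had signals of 0.579 to 18.1 at E80 and 1.16 to 12.98 at E60 and overlapped between the days, and the signs for HTR1B and HTR7 changed when single arrays were left out. The pair of probe sets of HTR4 had log2 differences of 1.07 and -0.38.

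Of the adrenoceptors, which bind noradrenaline and adrenaline, ADRA2A couples to inhibitory G proteins. ADRA2A had signals of 30.6, 67.8 and 47.4 at E80, against 75.1, 70.3 and 94.2 at E60. All E80 embryos were below all E60 embryos, but E80 replicate 2 lay close to them, and the log2 difference of -0.78 (standard error 0.29) did not pass (adjusted p = 0.210). The stimulatory receptors ADRB1 and ADRB3 had log2 differences of 0.27 and 0.25, at signals of 12.98 to 41.3 at E80 and 9.89 to 30.1 at E60, and overlapped.

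**Figure D3:**
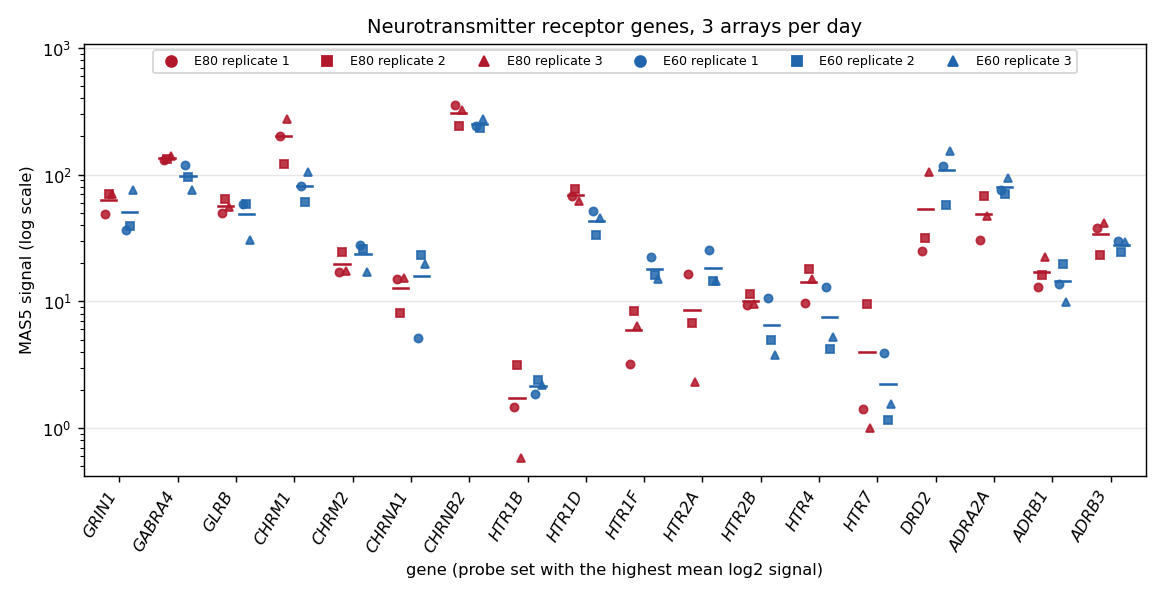
MAS5 signal (log scale) of the 18 receptor genes on each array, with E80 in red to the left of E60 in blue, 1 marker shape per replicate and bars for the means. CHRM1, GABRA4 and HTR1D are higher and HTR1F and ADRA2A lower at E80 without overlap, and the other 13 overlap.

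The array reads 11 of the 33 members with more than 1 probe set. For 8 of these all probe sets had the same sign of the log2 difference, and for HTR4, NSF and RAB3D they did not. The disagreement of HTR4 was between dim probe sets, and that of NSF between the probe sets above the median level (0.38 and 0.11) and one near it (-0.31). With the mean of all probe sets of a gene in place of the one with the highest level, 5 members had risen and none had fallen.

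**Figure D4:**
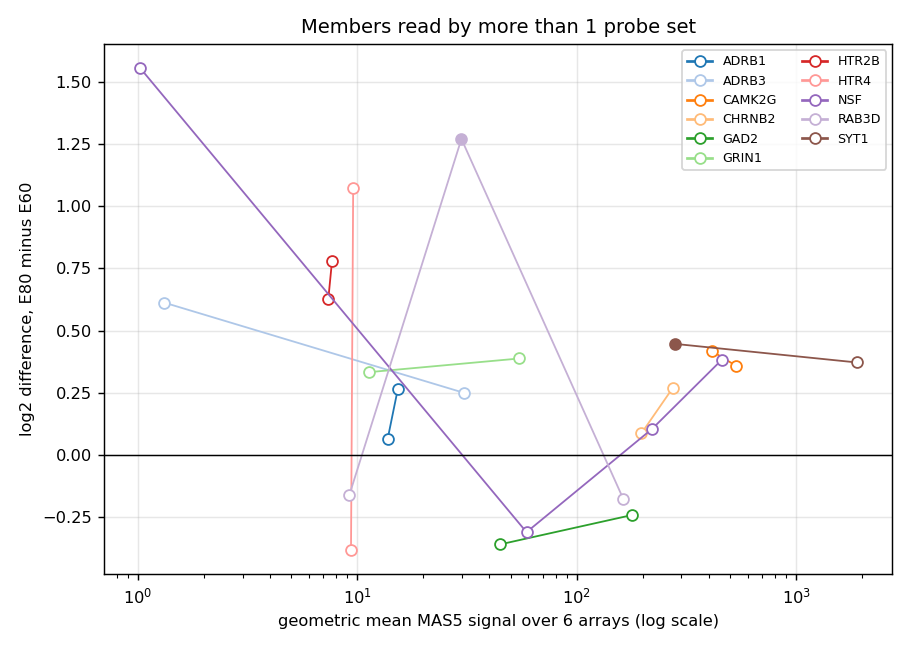
Log2 difference of E80 minus E60 against the geometric mean signal (log scale) for the 11 members with several probe sets, each line joining the probe sets of 1 gene. Filled points passed the test (1 probe set each of SYT1 and RAB3D), and RAB3D, NSF and HTR4 cross the zero line.

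Genes of the synapse outside the members, taken from lists of 130 genes of the active zone, vesicle loading and recycling, postsynaptic scaffolds, synaptic adhesion, transmitter metabolism and activity-dependent transcription, showed no call. Of the 46 that were measured, 0 rose and 0 fell in limma, while 15 were under an unadjusted p of 0.05, 12 of them higher and 3 lower at E80, or 32.6% against 20.7% of all named genes. Their median log2 difference was 0.15, with 31 of 46 higher at E80. The smallest adjusted p among them belonged to the glutamate transporter of astrocytes SLC1A2 (log2 difference 0.80, adjusted p = 0.0516) and the vesicular zinc transporter SLC30A3 (1.36, adjusted p = 0.0559), which were named after their values were seen. SLC1A2 passed with the medians of the arrays set to a common value (0.92, adjusted p = 0.0394). The vesicle SNARE VAMP2, the partner of SNAP25 in fusion and likewise named afterwards, had signals of 2123, 1546 and 2273 at E80, against 1315, 1012 and 1721 at E60. The days of VAMP2 overlapped, and its log2 difference of 0.57 did not pass (adjusted p = 0.202).

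**Figure D5:**
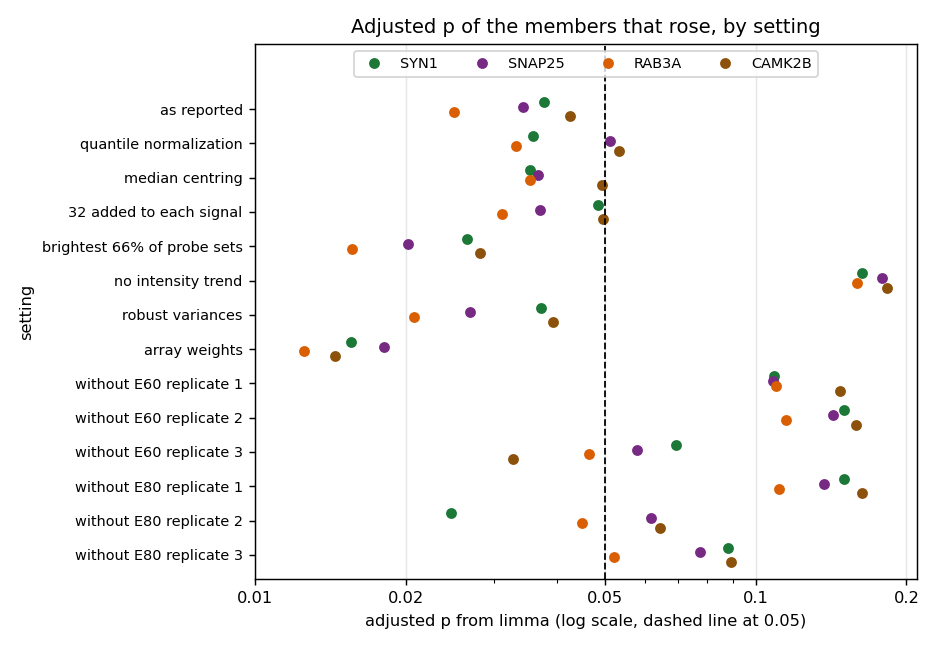
Adjusted p from limma (log scale, dashed line at 0.05) of SYN1, SNAP25, RAB3A and CAMK2B as reported and in 13 other settings. Each gene lies left of the line as reported, and all 4 lie right of it without the intensity trend and without E60 replicate 1, E60 replicate 2, E80 replicate 1 or E80 replicate 3.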

How the data were processed

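Labelled RNA of 6 cortices was read on the Affymetrix Pig Genome Array. Each deposited intensity is a linear MAS5 signal, in which the authors' array software combined perfect match and mismatch probes and applied 1 scaling factor to the whole array. Its version is not given in the sources used here, and detection calls were not used. The mean of the middle 96% of signals was 150.02 on each array. The 124 control probe sets were left out. Signals were taken to log2 without a pseudocount, which leaves dim probe sets noisy, and E80 was compared with E60 across all probe sets with limma 3.58.1 in R 4.3.3 (lmFit, eBayes with an intensity trend, Benjamini-Hochberg). The study names no test. The script was tested on simulated data.

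Gene names come from the platform annotation, and the symbols of all 33 members match the current RefSeq table by gene ID. No genome of the files' build and no probe sequences were used, so no position or sequence is printed. Signals of different probe sets are not amounts on a common scale; they were ranked only to choose the probe set of a gene, to divide genes at the median level and to choose genes to name, and were summed over marker lists. The members and lists were chosen with earlier results of these data known. Genes named are the 5 given with the pattern, those past the test or the 3-fold rule on any probe set, and in each role the member with the highest level and the 2 with the largest difference above the median signal of all probe sets; the remaining members are given by range or where they complete a family. The alternatives were other normalizations, an added 32, the brightest 66% of probe sets, other variance models, array weights, leaving out each array and another choice of probe set. An array has no counting depth, and 3 arrays per day limit the precision. P-values set each difference against the spread between these embryos, after limma draws that spread toward the one typical of probe sets of similar signal. They do not measure the spread of a probe set alone.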

Additional observations from a re-analysis of the deposited data

How the results depend on the processing

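The count of 4 members that rose was 2 after quantile normalization, 0 without the intensity trend and 0 to 3 when 1 array was left out. It was 4 to 6 with median centring, 32 added, the brightest 66% of probe sets (which keep 23 of the 33 members), robust variances, array weights or the mean of all probe sets of a gene. No member fell in any of these settings. Over all probe sets 467 were called, against 0 without the trend, 763 among the brightest 66%, 1169 with array weights and 1 to 367 with 1 array left out. The median log2 difference of the vesicle and release genes, 0.38, was 0.50 after median centring, 0.35 to 0.46 with 1 array left out and 0.16 when scaled to neuronal markers. That of the receptor genes, 0.27, was 0.09 to 0.38 in the settings other than scaling to neuronal markers. In these it moved by less than its spread between arrays of 0.19. Scaling to neuronal markers lowered it by 0.22, the mean log2 difference of those markers, which is more than that spread. Members lower at E80 without overlap, 2 as reported, numbered 1 after quantile normalization, after median centring or among the brightest 66%, and 3 to 4 with 1 array left out. The 1 member past 3-fold became 0 with 32 added, and 2 passed 2-fold. Among the other synaptic genes 1 was called after median centring. Apart from the mean of probe sets and scaling to neuronal markers, 4 of 33 members changed sign, none of them past the test. With the mean of all probe sets of a gene, 8 of the 9 vesicle and release genes were higher at E80, against 7 as reported. Scaled to neuronal markers, CAMK2D (-0.07), DLG3 (-0.14) and GAD1 (-0.10) turned negative. With 1 array left out GLRB ran from -0.050 to 0.42, CHRNA1 from -0.79 to 0.29, HTR7 from -0.70 to 0.94 and HTR1B from -1.21 to 0.017, and CHRNA1 was 0.0037 after median centring. The cause of these changes was not tested. No paired analysis was possible because the labels give the embryos of both days no shared numbers. Detection calls were not used, so how far the 15 members at or below the median level lay above background is not known.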

Other observations

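Among the 18 members above the median level, the highest signal of E80 was on replicate 1 for 9 genes, replicate 2 for 3 and replicate 3 for 6, and the highest of E60 was on replicate 1 for 7, replicate 2 for 2 and replicate 3 for 9. Replicate 2 had the lowest signal for 8 of the 18 at E80 and for 9 of the 18 at E60. The replicate numbers are names and do not pair the embryos. SYT5, CHRM1 and DRD2 each had their highest signal of both days on replicate 3, and DRD2 on E80 replicate 3 was 104, against 25.1 and 31.4 on the other E80 arrays.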
